A study of Mus musculus with 12 samples.

Results

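The C/EBP family (CCAAT/enhancer-binding proteins) was followed through 12 libraries of sorted mouse lung cells as 5 genes, Cebpa, Cebpb, Cebpd, Cebpe and Cebpg. Its members were picked by gene symbol, and 5 of 5 were found among the 23238 symbols of the deposited counts. Of these, 4 passed the filter on low counts, as did 13054 symbols in all, and Cebpe did not. In an edgeR fit, none of the 4 passed the study's threshold in any comparison, where 1.44% to 4.47% of all tested genes did. The paper names no test for its sequencing and reports many more genes at this threshold in BLM against Con. The values of Cebpa and Cebpb in every BLM library were below those in every Con library, and 16.0% of all tested genes likewise did not overlap between these groups.

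The study put 12 mice into 4 groups of 3, with 1 library per mouse. Con mice received PBS and are called wild type in the labels. The paper describes the mice without the knockout in 2 ways, as C57BL/6 and as Spc-p300 f/f (floxed), and their genotype was not settled here. BLM mice, also without the knockout by the labels, received bleomycin, a DNA-damaging agent used to injure the lung, at 4 mg/kg into the trachea. KO mice carried a p300 knockout and received PBS, and KOBLM mice carried the knockout and received bleomycin. In the knockout, exon 9 of p300 was floxed and the Cre recombinase was a tamoxifen-inducible CreERT2 under the Spc promoter, so that deletion was limited to cells using that promoter. Tamoxifen was given at 10 mg/kg to mice of 8 weeks to delete p300. The labels repeat this for every sample, while the paper also speaks of vehicle in place of tamoxifen, so it is unclear whether the Con and BLM mice received it. If they did not, knockout and tamoxifen cannot be told apart. Cells positive for CD74 and EpCAM were sorted as alveolar type II (ATII) cells. p300, made from Ep300, is a histone acetyltransferase that acts as a coactivator for many transcription factors, C/EBP proteins among them.

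C/EBP proteins are basic leucine zipper (bZIP) factors. They dimerise with each other and with other bZIP proteins through the zipper and bind DNA through the basic region beside it. In the lung, C/EBPα is known for its part in ATII cell maturation and surfactant production, and in myeloid cells C/EBPα, C/EBPβ and C/EBPε act at successive steps of differentiation. C/EBPβ and C/EBPδ are known as factors of the acute-phase response to IL-1 and IL-6, and C/EBPγ lacks the activation domain of the others and works as a partner of C/EBPβ and ATF4.

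The basic region is what the 5 genes share most closely, and the bases coding for it are shown to compare the members. Each run is 54 bases of coding sequence, read 5′ to 3′ from the GENCODE M21 transcripts of GRCm38, with capitals at the bases that differ from Cebpa.
Cebpa: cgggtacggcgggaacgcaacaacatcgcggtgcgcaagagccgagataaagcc
Cebpb: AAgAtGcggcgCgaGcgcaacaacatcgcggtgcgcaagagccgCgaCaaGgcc
Cebpd: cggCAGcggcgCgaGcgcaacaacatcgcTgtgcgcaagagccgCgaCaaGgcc
Cebpe: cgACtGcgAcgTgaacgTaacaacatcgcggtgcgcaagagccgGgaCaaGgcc
Cebpg: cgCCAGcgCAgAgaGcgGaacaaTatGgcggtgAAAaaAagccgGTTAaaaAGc
Cebpb, Cebpd and Cebpe each differed from Cebpa at 9 of the 54 bases, and Cebpg differed at 21. Identity with Cebpa was therefore 83.3% for the first 3 and 61.1% for Cebpg. The closest pair was Cebpb and Cebpd, at 90.7%. The stretches lie at chr7:35120277-35120330 on the plus strand (Cebpa), chr2:167689697-167689750 on the plus strand (Cebpb), chr16:15887907-15887960 on the plus strand (Cebpd), chr14:54710710-54710763 on the minus strand (Cebpe) and chr7:35050588-35050641 on the minus strand (Cebpg). Cebpa and Cebpg are neighbours on chromosome 7, at chr7:35119293-35121928 and chr7:35046422-35056573. Cebpb is a gene of a single exon.

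RefSeq start sites were at hand for 3 of the 5 members, Cebpa, Cebpb and Cebpg, on GRCm38.p6. The 250 bases before the start of Cebpa and of Cebpb are printed because these were the members whose values in BLM and Con did not overlap, with matches to the searched motifs in capitals, on either strand.
Cebpa: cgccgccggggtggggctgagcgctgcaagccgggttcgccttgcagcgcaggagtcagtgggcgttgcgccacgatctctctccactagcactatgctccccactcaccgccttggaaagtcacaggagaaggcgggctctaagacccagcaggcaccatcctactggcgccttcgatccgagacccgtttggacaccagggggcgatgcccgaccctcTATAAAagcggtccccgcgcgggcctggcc
Cebpb: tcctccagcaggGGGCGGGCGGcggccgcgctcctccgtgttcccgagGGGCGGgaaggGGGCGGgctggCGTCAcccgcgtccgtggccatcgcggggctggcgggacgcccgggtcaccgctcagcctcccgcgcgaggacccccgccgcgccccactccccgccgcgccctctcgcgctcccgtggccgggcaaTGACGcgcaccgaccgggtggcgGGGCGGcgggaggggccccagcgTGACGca
The window of Cebpa spans chr7:35119043-35119292 and that of Cebpb chr2:167688665-167688914, both on the plus strand. Motifs were searched on both strands. A TATA box (TATAAA) stood 30 bases before the start of Cebpa, and 12.4% of the 32851 promoter windows hold these letters. Cebpb held 5 GC boxes (GGGCGG), of which those 238 and 234 bases before the start overlap. It also held 3 core motifs of the cAMP response element (TGACG), at 180, 53 and 7 bases before the start. GC boxes are in 32.7% of the windows and that core motif in 17.8%. The window of Cebpg held 2 CCAAT motifs, a motif of 33.8% of windows. No window of the 3 members held the C/EBP-type motif TTGCNNAA, which is in 9.56% of windows. C/EBP sites that depart from these letters were not searched for. The GC content was 66.4% for Cebpa, 81.6% for Cebpb and 70.8% for Cebpg, against a median of 52.4% over all windows.

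The libraries held between 7005005 and 11153154 counts, and they did not look like pure ATII cells by their markers. The kit reads the 3′ end of each transcript, so a count does not grow with transcript length, and levels are given as CPM, a count scaled to the size of its library, after TMM scaling unless stated otherwise. Sftpc, the defining surfactant gene of ATII cells, ranged from 0.554 to 612 CPM of the library total, and Lpcat1 was at 0 in 8 of 12 libraries. The 16 macrophage markers summed to between 10460 and 40925 CPM in the 11 libraries other than BLM 3, against 643 to 3644 CPM for the 12 ATII markers, although Cd74 is among the latter and is also made by macrophages. In BLM 3 the macrophage sum was 1280 CPM, and 10 pluripotency genes summed to 2476 CPM against 0.648 to 17.97 CPM elsewhere. BLM 3 therefore stood apart from every other library, and the members' fold changes and the list medians in BLM against Con are also given without it. In these bulk samples, fewer cells of a type and less RNA per cell cannot be told apart.

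Ep300 counts could not check the knockout, because the reads come from the 3′ end and not from exon 9. The part of cells other than ATII cells in these counts was not tested either. The paper reports a check of the deletion by qRT-PCR in isolated ATII cells. The levels of Ep300 were 134, 145 and 47.6 in Con, 152, 184 and 92.7 in the libraries labelled KO and 177, 53.2 and 105 in those labelled KOBLM. These ranges overlap, with a log2 fold change of 0.39 ± 0.69 (SE) for KO against Con (edgeR quasi-likelihood test, adjusted p = 1).

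Cebpb was the most abundant member in 10 of 12 libraries. Its share of the family counts averaged 48.4% ± 5.31 in Con, 35.0% ± 23.6 in BLM, 67.6% ± 5.65 in KO and 56.0% ± 22.4 in KOBLM (SD, n = 3). Without BLM 3 its mean in BLM was 48.2%. Cebpa had 26.6% ± 2.10 in Con, 10.2% ± 10.6 in BLM, 18.4% ± 2.22 in KO and 21.9% ± 15.2 in KOBLM. Cebpd had 14.6% ± 6.77 in Con, 35.4% ± 15.9 in BLM, 5.70% ± 2.15 in KO and 13.97% ± 8.56 in KOBLM. Its share was above that of Cebpa in 4 libraries, all 3 of BLM and KOBLM 1. For Cebpa, Cebpb and Cebpd alike, the shares in Con and KO did not overlap. Shares within a library depend on each other, so these are not separate results, and other sets of genes were not examined in this way. Without BLM 3 the BLM means were 15.2% for Cebpa and 26.4% for Cebpd. In KOBLM 2 Cebpa took the first place with 38.5%, above the 30.5% of Cebpb, and in BLM 3 Cebpd did with 53.2%, above the 38.0% of Cebpg. Over all libraries Cebpd ranged from 3.55% to 53.2% and Cebpg from 5.43% to 38.0% of the family, so that the order of these last members varied between mice. The family as a whole summed to 1333, 1081 and 1031 CPM of the library total in Con and to 744, 556 and 112 in BLM. It summed to 1426, 878 and 1413 in KO and to 1102, 980 and 926 in KOBLM. Every BLM library was below every other library in this sum. Sums of other sets of genes were not examined, and 16.0% of single tested genes did not overlap between BLM and Con.

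**Figure D1:**
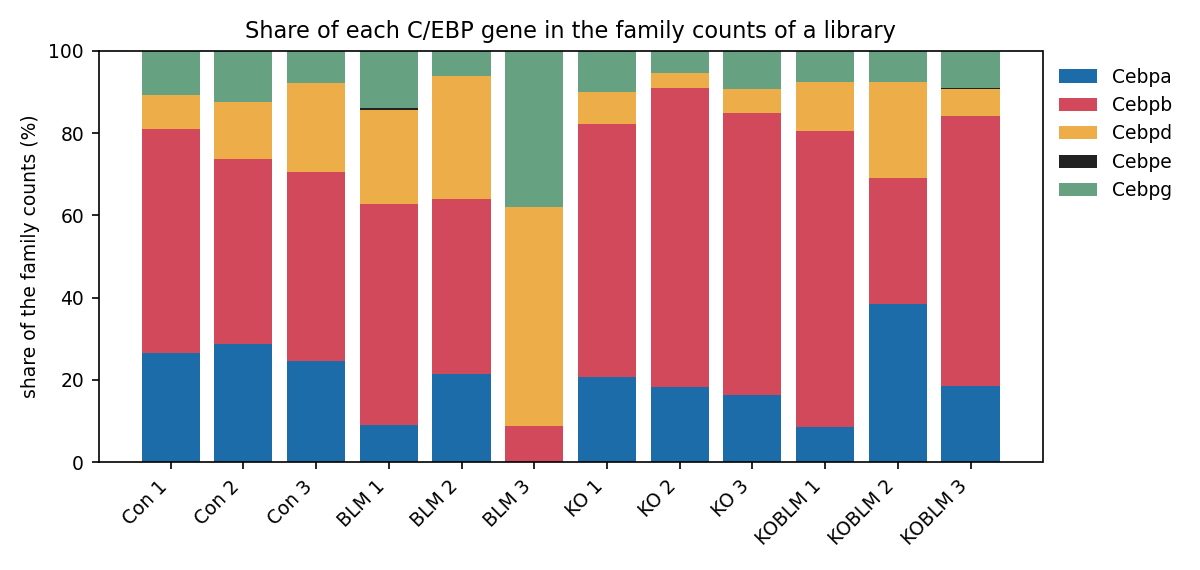
Stacked bars give the percentage of the summed C/EBP counts that each of the 5 genes held in each of the 12 libraries. Cebpb is the largest segment except in KOBLM 2, where Cebpa held 38.5%, and BLM 3, where Cebpd held 53.2%.

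Cebpa, which encodes C/EBPα, had lower values in BLM than in Con mice. Its levels were 337, 315 and 237 in Con and 68.7, 132 and 0.144 in BLM. Those of the libraries labelled KO were 309, 193 and 207, and those of the libraries labelled KOBLM 99.0, 370 and 188. All 3 BLM values were below all 3 Con values, whereas KOBLM overlapped with BLM, KO and Con. BLM 3 held only 2 counts of Cebpa, under the detection floor of 3 counts (0.269 CPM of its total). The floor takes in the error of counting alone, because PCR copies of a molecule were not marked by identifiers.

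The log2 fold change of Cebpa for BLM against Con was -2.15 ± 1.18 (SE, edgeR, adjusted p = 0.995). It did not pass the threshold of the study, a fold change over 1.5 with an unadjusted p under 0.05. In this comparison 4.27% of the 13054 tested genes did, and 0 of the 4 tested members. Without BLM 3 the difference was -1.56 and without BLM 2 it was -3.11, both past the threshold. The adjusted p over the alternatives stayed between 0.608 and 1. The macrophage marker sum was 14227, 12540 and 24409 CPM in Con and 12262, 13783 and 1280 CPM in BLM, and the neutrophil sum was 161, 318 and 3906 against 5963, 2009 and 143 CPM. Both of these overlapped. The sum of 5 fibroblast markers was 64.3, 188 and 424 CPM in Con and 1390.4, 901 and 1005 CPM in BLM. That of 6 ATI markers was 157, 231 and 285 against 379, 348 and 399.9 CPM. Both sums were higher in every BLM library than in every Con library, and 16.0% of single tested genes did not overlap between these groups. In BLM 3, however, the fibroblast markers Pdgfra, Dcn and Lum and the ATI markers Hopx and Aqp5 were at 0. The ATII marker sum was 2543, 3644 and 1150 CPM in Con and 1665, 2776 and 1612 CPM in BLM, and it overlapped. The part of other cells in the levels of Cebpa and Cebpb was not tested.

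Between KOBLM and BLM, Cebpa differed by 1.71 ± 1.16 on the log2 scale (edgeR, adjusted p = 1). The 95% interval ran from -0.77 to 4.19. Of the tested genes 3.16% were called in this comparison, and 0 of the 4 members. Without BLM 3 the difference was 1.13, just past the threshold. KO differed from Con by -0.33 ± 1.13 (adjusted p = 1), a comparison in which 1.44% of genes and 0 of the members were called. KOBLM differed from KO by -0.11 ± 1.13 (adjusted p = 1), where 1.69% of genes and 0 of the members were called.

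Cebpb, which encodes C/EBPβ, also had lower values in BLM than in Con mice, and its highest group mean in KO. Its levels were 692, 492 and 441 in Con and 408, 264 and 7.73 in BLM. Those of the libraries labelled KO were 918, 765 and 873, and those of the libraries labelled KOBLM 830, 293 and 664. The 3 BLM values were all below the 3 Con values, and the 3 KO values all above them. The second of these separations depended on the scaling, since in CPM of the library total KO ran from 638 to 970 and Con from 472 to 727.

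The log2 fold change of Cebpb for BLM against Con was -1.26 ± 0.86 (edgeR, adjusted p = 1), and -0.69 without BLM 3, neither past the threshold. For KO against Con it was 0.65 ± 0.85, and for KOBLM against KO -0.52 ± 0.84 (adjusted p = 1 in both). KOBLM was higher than BLM by 1.40 ± 0.86 on the log2 scale, which did not pass (edgeR, adjusted p = 1). Without BLM 1 the difference was 2.13, past the threshold, and without BLM 3 it was 0.83, which was not.

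Values of 2 of the 4 tested members, Cebpa and Cebpb, did not overlap between BLM and Con, where 16.0% of all tested genes did not overlap. Cebpb was 1 of 4 between KO and Con, beside 9.09% of the tested genes. Between KOBLM and BLM no member was without overlap, beside 10.8% of genes, and between KOBLM and KO none was, beside 6.87%. Without BLM 3, Cebpa and Cebpb still did not overlap between BLM and Con, and 31.7% of the tested genes did not. An exact permutation test of 3 against 3 mice cannot give a two-sided p under 0.1, and it gave p = 0.1 for Cebpa and for Cebpb in BLM against Con.

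**Figure D2:**
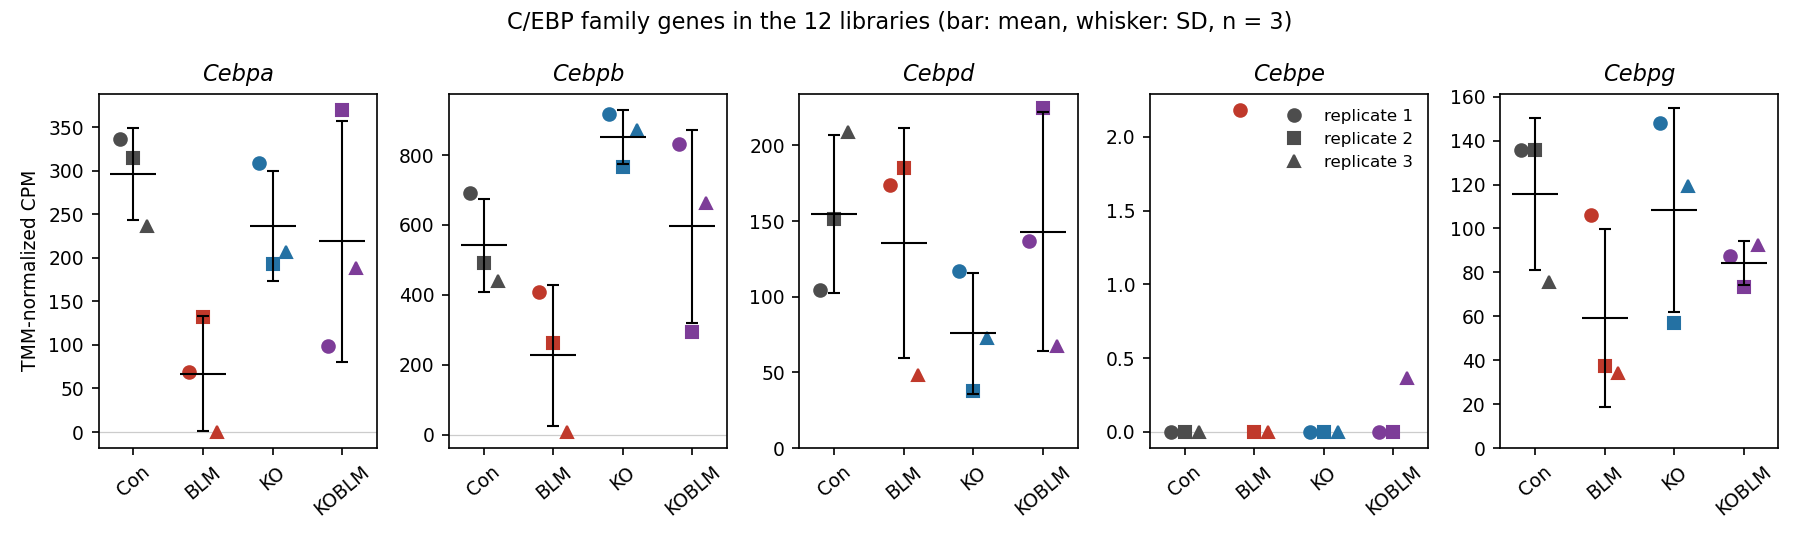
TMM-normalized CPM of the 5 genes in each library, with a linear axis for each gene. Symbols give the replicate number (not used to pair mice), and bars with whiskers give the mean ± SD of 3 mice per group. BLM lies below Con for Cebpa (0.144 to 132 against 237 to 337) and for Cebpb (7.73 to 408 against 441 to 692), and Cebpe is drawn without mean or SD because it is 0 in 10 libraries.

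Cebpd, which encodes C/EBPδ, did not follow Cebpa and Cebpb in these values. Its levels were 104, 151 and 209 in Con and 174, 185 and 48.0 in BLM. They were 117, 37.4 and 72.4 in KO and 137, 225 and 67.7 in KOBLM. All groups overlapped, and the lowest value of a BLM library was that of BLM 3. BLM differed from Con by -0.19 ± 0.68 on the log2 scale (edgeR, adjusted p = 1) and, without BLM 3, by 0.21, so that the sign depended on this library. KO against Con gave -1.03 ± 0.69 and KOBLM against KO 0.92 ± 0.69 (adjusted p = 1 in both), without passing. KOBLM against BLM gave 0.08 ± 0.68 (adjusted p = 1), and -0.33 without BLM 3.

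Cebpg, which encodes the partner protein C/EBPγ, had a coefficient of variation of 41.6% over the 12 libraries, the lowest of the 4 tested members. Its levels were 136, 136 and 75.8 in Con and 106, 37.3 and 34.3 in BLM. They were 148, 57.2 and 119 in KO and 87.4, 73.2 and 92.6 in KOBLM. BLM and Con overlapped through BLM 1. BLM differed from Con by -0.97 ± 0.66 on the log2 scale (edgeR, adjusted p = 1), and without BLM 1 by -1.70, past the threshold. Without BLM 3 it was -0.69. KOBLM against BLM gave 0.51 ± 0.65 (0.23 without BLM 3), KO against Con -0.10 ± 0.65 and KOBLM against KO -0.36 ± 0.65 (adjusted p = 1 in each).

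Cebpe, which encodes C/EBPε, a factor of late granulocyte differentiation, was at or near 0. It had 15 counts in BLM 1, 3 counts in KOBLM 3 and 0 counts in the other 10 libraries. The 15 counts of BLM 1 made 2.14 CPM of the library total, against a floor of 0.428 CPM in that library. BLM 1 also had the highest sum of the 12 neutrophil markers, 5963 CPM. The part of neutrophils in the counts of Cebpe was not tested.

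The effect of bleomycin was also estimated over both genotypes. Here Cebpa differed by -1.13 ± 0.81 on the log2 scale (edgeR), Cebpb by -0.89 ± 0.60, Cebpd by 0.36 ± 0.48 and Cebpg by -0.66 ± 0.46, each with an adjusted p of 0.9998. Of the tested genes 4.47% were called, and 0 of the 4 members. Without BLM 3, Cebpa was called (-0.83) and Cebpb was not (-0.60), beside 7.16% of genes, and Cebpd gave 0.56 and Cebpg -0.52, neither called. The interaction, which asks whether bleomycin acted differently in the genotypes, gave differences of 0.61 ± 0.92 for Cebpg to 2.04 ± 1.61 for Cebpa on the log2 scale (edgeR, adjusted p = 0.9999 in each), and 0 of the 4 members were called beside 2.82% of genes. Without BLM 3 the interaction was 1.46 for Cebpa, 0.17 for Cebpb, 0.70 for Cebpd and 0.33 for Cebpg, and 0 members were called beside 4.63% of genes.

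An exact permutation of the mice within each genotype gave smaller p-values for the same question, on log2(CPM + 1). This test was added after the values had been seen, and its smallest possible p is 0.005. The mean difference was -1.54 for Cebpb (exact two-sided p = 0.015) and -2.01 for Cebpa (exact p = 0.04). For Cebpg it was -0.68 (exact p = 0.11) and for Cebpd 0.27 (exact p = 0.62). These p-values are for 4 members and are unadjusted. Of all tested genes, 6.09% had an exact p under 0.05, and with adjustment over the 13054 genes the value was 0.625 for Cebpb and 0.714 for Cebpa. Without BLM 3 the difference was -0.67 for Cebpb (exact p = 0.015) and -0.94 for Cebpa (exact p = 0.05, no longer under the threshold). Over 14 alternatives (exact permutations, and sign flips for the replicate block), Cebpa stayed under 0.05 in 5 and Cebpb in 11. The highest exact p was 0.185 for Cebpa and 0.19 for Cebpb.

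**Figure D3:**
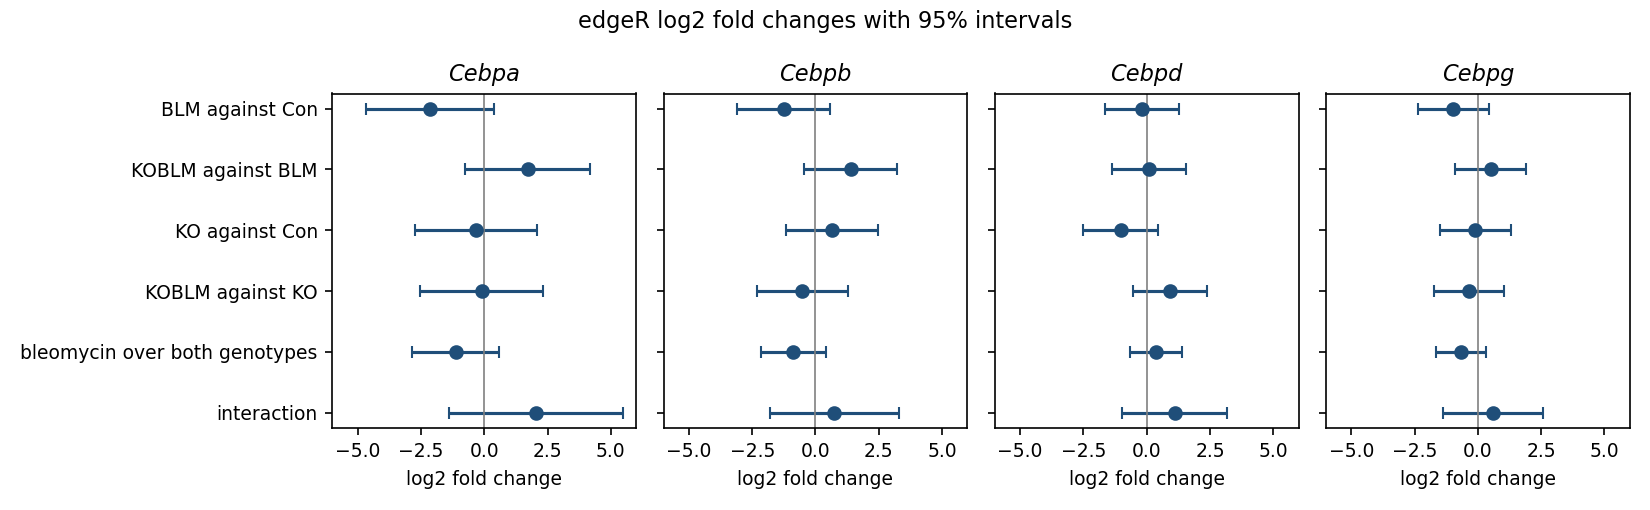
Points are edgeR log2 fold changes of the 4 tested members in the 6 comparisons, and bars are 95% intervals. Every interval spans 0, and the point farthest below 0 is Cebpa in BLM against Con (-2.15).

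The balance of the first 2 members was taken as the log2 ratio of Cebpb to Cebpa counts, with 1 count added to each. It was 1.04, 0.64 and 0.90 in Con and 1.57, 1.99 and 2.08 in KO. It was 2.57, 1 and 5.17 in BLM and 3.07, -0.34 and 1.82 in KOBLM. The Con and KO values were close within each group, and every KO value was above every Con value, by a mean of 1.02 (exact permutation test, two-sided p = 0.1, the smallest that 3 against 3 allow). Of single tested genes, 9.09% did not overlap between KO and Con, and ratios of other genes were not examined. The comparison of the ratio between KO and Con was not among those planned. The bleomycin groups were wide. Over both genotypes, bleomycin differed by 0.85 (exact permutation within genotype, p = 0.41), and KOBLM differed from BLM by -1.40 (exact permutation, p = 0.5). Both values leaned on BLM 3, whose ratio of 5.17 rests on 2 counts of Cebpa. Without it they were 0.28 (exact permutation, p = 0.645) and -0.27 (exact permutation, p = 1). The ratio does not depend on the scaling of a library, since both counts come from it.

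**Figure D4:**
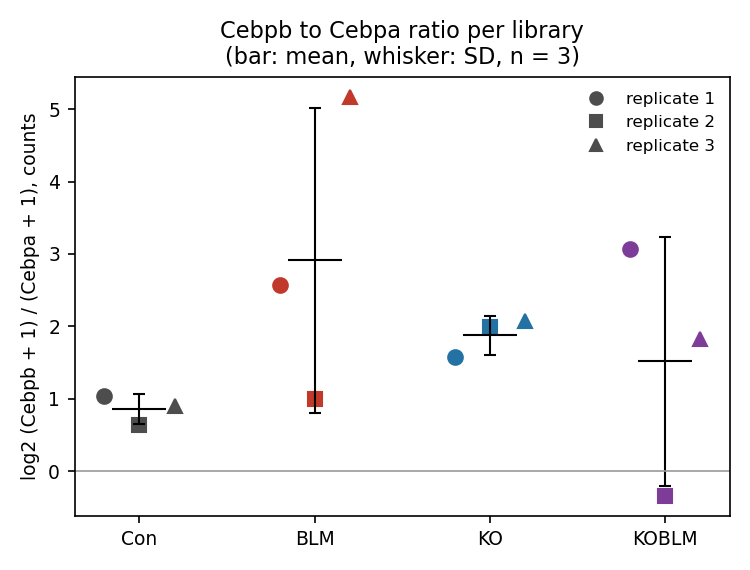
The log2 ratio of Cebpb to Cebpa counts in each library, by group, with the mean ± SD of 3 mice. The KO values (1.57 to 2.08) lie above the Con values (0.64 to 1.04), and the BLM values run from 1 to 5.17.

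Members were next compared with each other over the libraries, on log2(CPM + 1), as 6 pairs. Over 12 libraries Cebpb and Cebpg gave Pearson's r = 0.69 (permutation p = 0.00414, adjusted over the 6 pairs 0.0248) and Spearman's rho = 0.66 (permutation p = 0.0232, adjusted 0.139). Without the 2 libraries farthest from the median of Cebpb, BLM 2 and BLM 3, r was 0.29 (permutation p = 0.411), so the relation rested on them in part. Without BLM 3 alone, r was 0.57 (permutation p = 0.0673, adjusted 0.202), and with group means subtracted as well it was 0.53 (permutation p = 0.0893, adjusted 0.268). Cebpa and Cebpb gave r = 0.90 (permutation p = 0.0333, adjusted 0.0666) but rho = 0.27 (permutation p = 0.406), and r was 0.08 without BLM 3. With group means subtracted as well, r was -0.70 (permutation p = 0.0171, adjusted 0.103), the opposite sign. Cebpb and Cebpd gave r = 0.22 over 12 libraries (permutation p = 0.551) and rho = -0.38 (permutation p = 0.226). Without BLM 3 their r was -0.70 (permutation p = 0.0168, adjusted 0.101) and rho -0.72 (permutation p = 0.0168, adjusted 0.101). With the group means subtracted as well, r was -0.45 (permutation p = 0.168).

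The genes most like each member were ranked among 8911 other tested genes with a mean of at least 10 CPM, by the lower of Pearson's r over 12 libraries and over the 11 without BLM 3. For Cebpa these were Mmd (0.99 and 0.92), Igf2bp2 (0.93 and 0.91) and Pcyox1 (0.93 and 0.91). For Cebpb they were Ccdc88a (0.99 and 0.89), Tmx3 (0.99 and 0.87) and Prcp (0.98 and 0.86). For Cebpd they were Ints10 (0.88 and 0.87), Klrb1b (0.89 and 0.87) and Fgfr3 (0.89 and 0.86), and for Cebpg Rassf3 (0.89 and 0.88), Pofut1 (0.86 and 0.83) and Ctnnd1 (0.89 and 0.83). No other member was among the 3 genes most like a member. The points share libraries, and no p-value is attached.

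The study followed the chemokine genes Ccl2, Ccl7 and Ccl12, and Cebpa and Cebpb were set against them over the 12 libraries as 6 relations. The paper links C/EBPβ, and not C/EBPα, to these genes through acetylation by p300, binding at the genes and knockdown in a cell line. The mRNA levels compared here measure none of these. Ccl7 had 0 counts in every Con library, and Ccl2 had 0 in KO 3 and 7 in BLM 3. Some points are therefore ties at 0 or lie near it, where r depends on the value added before the logarithm. Pearson's r was between 0.05 for Cebpa with Ccl12 (permutation p = 0.926) and 0.37 for Cebpb with Ccl2 (permutation p = 0.277), and the smallest permutation p adjusted over the 6 was 0.926. Spearman's rho was between -0.36 for Cebpa with Ccl2 (permutation p = 0.257) and -0.03 for Cebpb with Ccl2 (permutation p = 0.939), with adjusted values from 0.551. BLM 3 set the sign of r. Without it all 6 values were negative, from -0.59 for Cebpa with Ccl7 (permutation p = 0.0576, adjusted 0.128) to -0.27 for Cebpb with Ccl2 (permutation p = 0.415). For Cebpa with Ccl2, rho was then -0.71 (permutation p = 0.0180, adjusted 0.108). Without the 2 libraries farthest from the median of the factor, the adjusted p of r was at least 0.489. With group means subtracted, r was between 0.65 and 0.81, but without BLM 3 it was then between -0.42 and 0.24, with an adjusted p of 0.752 in each.

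Partners, regulators and targets of the family were described as lists taken from general knowledge of these factors. Among 11 bZIP partners tested, which can pair with C/EBP proteins or bind related sites, 0 were called in BLM against Con and 3 had a positive log2 fold change. Their median was -0.60, beside -0.08 over all tested genes. Atf4, the partner of C/EBPγ in the amino acid response, ran from 307 to 366 in Con and from 278 to 347 in BLM, ranges that overlap. Atf3 ran from 17.7 to 196 in Con and from 0 to 142 in BLM. Over both genotypes Tef, a factor of the related PAR bZIP group, rose (log2 fold change 4.29 ± 1.998, edgeR, adjusted p = 0.9998), and it was at 0 in BLM 3, KO 2, KO 3 and KOBLM 2.

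Among 19 inputs and regulators tested, the cytokines, receptors and signalling genes upstream of the family, 1 rose in BLM against Con and 0 fell. It was Il1b, the gene of the inflammatory cytokine IL-1β, with 40.7, 68.0 and 208 in Con and 1588, 490 and 43.3 in BLM (log2 fold change 2.74 ± 0.98, edgeR, adjusted p = 0.995). BLM 1 and BLM 2 were above every Con library and BLM 3 was not. Over both genotypes Il1b (2.24 ± 0.68), Il6 and Socs3, the feedback inhibitor of cytokine signalling (2.45 ± 0.99), rose, each with an adjusted p of 0.9998, and the median of the list was 0.39 beside 0.03 over all genes. Il6 had counts in 4 libraries, 18 in BLM 1, 64 in BLM 2, 3 in KO 1 and 140 in KOBLM 1, and was at 0 in all Con libraries, so its fold change is not given. Stat3, the transducer of IL-6, was at 502, 650 and 314 in Con and 904, 1072 and 161 in BLM, and was not called. Trib1, whose protein targets C/EBPα for degradation, was at 410, 409 and 351 in Con and 582, 382 and 18.7 in BLM, and was not called.

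Of 9 surfactant and lipid targets tested, 2 fell in BLM against Con, Sftpa1 and Sftpc, and 0 rose. Sftpa1, which encodes surfactant protein A, was at 280, 483 and 129 in Con and 25.2, 50.0 and 14.1 in BLM. It fell by 3.32 on the log2 scale (SE 0.99, edgeR, adjusted p = 0.995), and no BLM value reached a Con value. Sftpc, which encodes surfactant protein C, was at 221, 619 and 129 in Con and 25.6, 20.1 and 59.4 in BLM, and fell by 3.20 (SE 1.27, adjusted p = 0.995). The list median was -2.06 beside -0.08 over all genes, and 1 of the 9 had a positive log2 fold change. Pparg, a lipid regulator made by ATII cells and alveolar macrophages alike, was at 228, 226 and 302 in Con and 25.8, 149 and 0 in BLM, and was not called. Over both genotypes the same 2 genes were called, Sftpa1 at -2.22 ± 0.67 and Sftpc at -1.85 ± 0.85 (adjusted p = 0.9998 in both). The Cre of the knockout libraries is driven by the Sftpc promoter, and Sftpc in KO was at 142, 13.3 and 66.8. These values overlapped with Con, and Sftpc was not called in KO against Con (log2 fold change -2.12 ± 1.22, edgeR). Any part of the Cre in them was not tested.

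Of 12 acute-phase and inflammatory targets tested, 3 rose in BLM against Con (Il1b, Cxcl2 and Saa3), 0 fell, and 12 of 12 had a positive log2 fold change, with a median of 2.88 beside -0.08. Saa3, which encodes an acute-phase serum amyloid protein, was at 0, 2.92 and 8.97 in Con and 732, 258 and 10.5 in BLM (log2 fold change 6.38 ± 2.20, adjusted p = 0.995). Cxcl2, a neutrophil-attracting chemokine gene, was at 879, 556 and 629 in Con and 11932, 6024 and 37.1 in BLM (3.12 ± 1.28, adjusted p = 0.995), with BLM 3 below every Con library. Over both genotypes 6 of the 12 rose (Il1b, Il6, Saa3, Cxcl2, Lcn2 and Orm1), with a list median of 2.36 beside 0.03. Lcn2, which encodes a siderophore-binding protein, was at 0, 13.2 and 43.5 in Con and 358, 96.1 and 3.18 in BLM, and over both genotypes it gave 2.47 ± 1.13 (adjusted p = 0.9998). Orm1, which encodes an acute-phase plasma glycoprotein, reached at most 79 counts in a library.

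Of 10 granule targets tested, which mark neutrophils and their precursors, 0 were called in BLM against Con. Lyz2, the lysozyme gene of myeloid and ATII cells, was at 366, 1025 and 7.22 in BLM and at 991, 3034 and 3625 in KOBLM, and rose between them (2.45 ± 1.03, adjusted p = 1). S100a9, a calcium-binding protein gene of neutrophils, was at 53.3, 142 and 2060.4 in Con and 2695, 1023 and 16.5 in BLM, and was not called. Of 13 targets of the amino acid response tested, 1 rose and 1 fell in BLM against Con. The cystine transporter gene Slc7a11 rose (4.02 ± 1.70, adjusted p = 0.995), from 11.7, 4.00 and 3.17 to 179, 97.5 and 29.0, and the serine synthesis gene Phgdh fell (-2.24 ± 1.02, adjusted p = 0.995), from 51.6, 30.6 and 85.3 to 8.74, 7.33 and 19.3. Slc7a11 also rose in KO against Con (4.49 ± 1.74, adjusted p = 1), with 36.9, 345 and 41.0 in KO. Slc3a2, which encodes the partner chain of that transporter, was at 254, 323 and 353 in Con and 575, 545 and 208 in BLM, and was not called. Ppp1r15a, a feedback regulator of the stress response, was at 47.0, 157 and 45.2 in Con and 341, 155 and 30.9 in BLM, and was not called.

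The list genes gave 20 calls over the comparisons, and with each library left out in turn 5 of them remained. These were Sftpa1 in BLM against Con and over both genotypes, Saa3 in the same comparisons, and Il1b over both genotypes. The other 15 each lost the call without at least 1 library. In BLM against Con these were Il1b without BLM 1, Sftpc without BLM 1, BLM 2 or Con 2, Cxcl2 without BLM 1, Con 2 or Con 3, Slc7a11 without BLM 1, Con 2 or Con 3 and Phgdh without BLM 1, BLM 2, Con 1 or Con 3. Slc7a11 in KO against Con lost it without Con 2, Con 3 or KO 2, and Lyz2 in KOBLM against BLM without BLM 1, KOBLM 2 or KOBLM 3. Over both genotypes Socs3 lost it without Con 1 or KO 1, and Tef, Il6, Sftpc, Cxcl2, Lcn2, Orm1 and Phgdh without 6 to 10 of the 12 libraries. Without BLM 3, the list medians in BLM against Con were -0.15 for the bZIP partners, 0.01 for the inputs and regulators, -1.52 for the surfactant targets, 3.44 for the acute-phase targets, 1.31 for the granule targets and 0.85 for the amino acid targets, beside 0.05 over all genes. Over both genotypes the first 4 were then -0.06, 0.36, -1.05 and 2.63, beside 0.10. None of the 20 calls ended without BLM 3, and further list genes then passed in BLM against Con, among them Stat3, Socs3, Pparg, Hp, Ptgs2, Lcn2 and Slc3a2, beside 5.45% of genes. Lists and members share libraries, and no relation between them was tested.

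**Figure D5:**
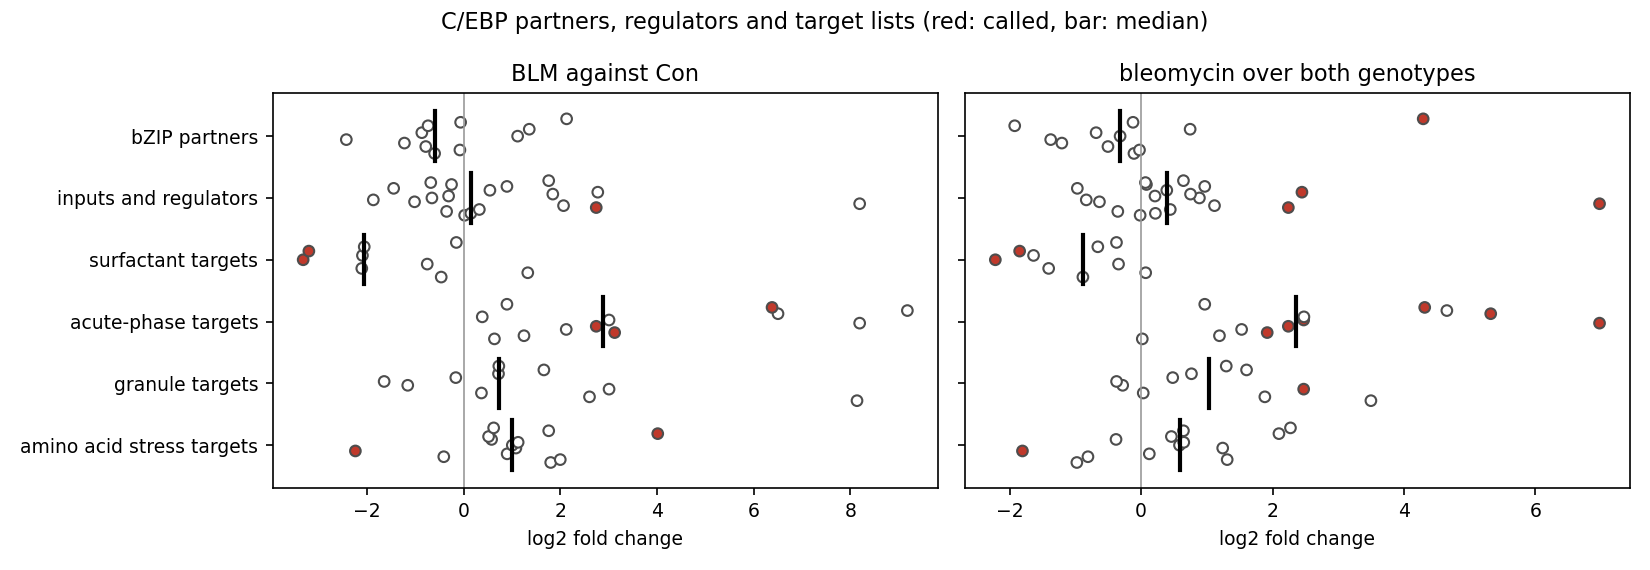
Each point is the edgeR log2 fold change of a tested gene of a list, red where it passed a fold change over 1.5 with an unadjusted p under 0.05, and the bar is the list median. The medians in BLM against Con run from -2.06 for the surfactant targets to 2.88 for the acute-phase targets, and points of genes at 0 in a group depend on the fit.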

How the data were processed

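RNA of sorted cells from 12 mice was sequenced with a 3′ mRNA kit. The authors deposited raw counts per gene symbol, without normalization. The submitters' processing notes name Bowtie2, edgeR and the build mm10 (GRCm38); the counting program and annotation are not given in the sources used here. Counts of repeated symbols (79 of 23282 entries) were summed. Groups and replicate numbers came from the labels.

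Counts were filtered with filterByExpr (minimum count 10, minimum total 15), scaled by TMM and fitted with the quasi-likelihood test of edgeR 4.0.16 as 1 model of the 4 groups with 8 residual degrees of freedom. p-values are two-sided, and adjusted p-values follow Benjamini-Hochberg over the 13054 tested genes. A gene was called, or said to rise or fall, at a fold change over 1.5 with an unadjusted p under 0.05, the study's threshold. The paper does not name the test behind its own sequencing calls, so calls made here are not those of the study. With this fit no gene had an adjusted p under 0.05 in any comparison; edgeR without the filter gave 0 to 12 and DESeq2 1.42.0 gave 57 to 114. The common dispersion was 2.08. Correlations used 100000 permutations. The edgeR steps were tested on simulated data, where recovery of changed genes was required only at a dispersion far below 2.08. That test does not show how well changed genes are recovered at the spread of these data. R 4.3.3, Python 3.11.15, numpy 2.4.6, pandas 2.3.3, scipy 1.17.1, matplotlib 3.10.9 and biopython 1.88 were used.

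The members, lists and tests were chosen with earlier results of these data known. Named in the text are the 5 members, Ep300, the 3 genes most like each member, the genes of a list called in a comparison and the 2 of highest mean CPM in it. Alternatives were other size factors, library size alone, no filter, DESeq2, a replicate block, only the groups compared, other pseudocounts and the omission of each library.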

Additional observations from a re-analysis of the deposited data

How the results depend on the processing

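Of the 328 alternative values for the 24 fold changes of the 4 tested members, 319 kept the direction and 8 were called. Without the low-count filter, 1 member was called in BLM against Con (Cebpa) and 1 in KOBLM against BLM (Cebpb), beside 4.41% and 3.69% of all genes. With a library left out, the number called ranged from 0 to 1 in BLM against Con, in KOBLM against BLM and for bleomycin over both genotypes, and stayed at 0 elsewhere, beside 2.08% to 5.45%, 1.67% to 3.34% and 3.46% to 7.16% of genes in those 3. Fold changes that turned with a library left out were Cebpa in KOBLM against KO (-0.72 to 0.24), Cebpd in BLM against Con (-0.48 to 0.21) and KOBLM against BLM (-0.41 to 0.41), Cebpg in KO against Con (-0.39 to 0.24) and Ep300 in KOBLM against BLM (-0.070 to 0.73). The direction of the Cebpb to Cebpa ratio held in every alternative, at 0.28 to 1.32 over both genotypes and -2.35 to -0.27 for KOBLM against BLM with a library left out, the values nearest 0 being without BLM 3.

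The correlations of Cebpa with Ccl2, Ccl7 and Ccl12 were -0.58, -0.59 and -0.57 without BLM 3, and those of Cebpb -0.27, -0.54 and -0.33. Without the 2 farthest libraries they were -0.44, -0.43 and -0.34 for Cebpa and -0.073, -0.39 and 0.015 for Cebpb. With group means subtracted they were 0.66, 0.75 and 0.81 for Cebpa and 0.74, 0.65 and 0.81 for Cebpb. Without BLM 3 as well, they were -0.17, 0.10 and 0.16 for Cebpa and 0.24, -0.42 and 0.20 for Cebpb, so the signs were mixed.

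Same-numbered libraries did not deviate together (correlations of -0.13 to 0.09 in 18 pairs), and the main fit did not pair mice by number. These correlations do not show whether same-numbered mice shared a batch or litter, on which the labels are silent. With the replicate number as a block, 0 members were called in each comparison and the ratio gave p = 0.4375 (exact sign flips) over both genotypes. The block called 100 genes instead of 188 in KO against Con, 100 instead of 221 in KOBLM against KO, 262 instead of 413 in KOBLM against BLM, 360 instead of 584 over both genotypes and 242 instead of 368 for the interaction. DESeq2 called 947 instead of 558 in BLM against Con, 755 in KOBLM against BLM, 374 in KO against Con, 460 in KOBLM against KO and 625 for the interaction. Without the filter 645 genes were called in KOBLM against BLM, 920 over both genotypes and 706 for the interaction. With only the groups compared, 149 were called in KOBLM against BLM and 138 in KOBLM against KO. With a library left out, between 88 and 1009 genes were called (without BLM 3, 1009 over both genotypes and 652 for the interaction). Library size alone moved the median of all genes by 0.12 in KO against Con. The causes were not tested. The lowest counts were 0 for Cebpe in 10 libraries and 2 for Cebpa in BLM 3, while every other count of the tested members was at least 107. BLM 3 had the highest total but the fewest genes with a count, 6847 against 8790 to 13838 in the other libraries.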
